A study of Homo sapiens with 16 samples.

Results

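The genes described here are the HNRNP and SRSF splicing regulators. They were chosen by symbol, as every gene in the deposited count table whose symbol begins with HNRNP or is SRSF followed by a number only. The rule found 33 of 20114 genes, of which 22 are HNRNP genes and 11 are SRSF genes. The rule itself uses no measured value, but the genes were chosen with earlier results of these data known. RNA was sequenced from Hs578 cells, a breast cancer line, and from TT642 cells, whose source label is rhabdoid tumour although the series design calls both lines triple-negative breast cancer. The question put to the cells was what changes when PRRX1, a homeobox transcription factor of mesenchymal cells, is lowered by a short hairpin RNA (shRNA).

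In each line the 8 libraries were the 3 derived lines shPRRX1_1, shPRRX1_2 and shPRRX1_3 with 3 µg/ml doxycycline, the same 3 derived lines without it, parental cells with 3 µg/ml doxycycline and parental cells without it. Doxycycline switches the hairpin on in derived lines, and parental cells carry no hairpin. The numbers in the titles are read here as 3 hairpins, 1 per derived line, a reading the titles do not spell out. Each parental condition is 1 library, so a parental value has no replicate. No library with a non-targeting hairpin was analysed here. Nothing in the labels says that the 3 libraries of a group came from separate cultures beyond their different numbers. The p-values therefore measure the spread between these libraries.

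Heterogeneous nuclear ribonucleoproteins (HNRNP) coat nascent transcripts and often silence the exons they bind. Serine and arginine rich splicing factors (SRSF, or SR proteins) bind exonic enhancers and recruit the spliceosome, so the families frequently act in opposition on the same exon. Many genes of both families also limit their own messenger RNA by including an exon with a premature stop, which sends the transcript to nonsense-mediated decay. HNRNPM, the marker given for the set, is known in breast cancer cells for promoting the mesenchymal splice form of CD44.

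The 250 bases before the start of 4 of these genes are shown because the results turn on them. HNRNPM, SRSF1 and SRSF6 carried the contrast between hairpin lines and parental cells in Hs578, with SRSF2, and HNRNPAB had the largest called change after hairpin induction. The sequences are RefSeq's, on build GRCh38.p14, printed 5′ to 3′ on the strand of the gene. They lie at chr19:8444725-8444974 on the plus strand for HNRNPM, chr17:58007247-58007496 on the minus strand for SRSF1, chr20:43457646-43457895 on the plus strand for SRSF6 and chr5:178204283-178204532 on the plus strand for HNRNPAB. Capitals mark matches to the motifs searched.
HNRNPM: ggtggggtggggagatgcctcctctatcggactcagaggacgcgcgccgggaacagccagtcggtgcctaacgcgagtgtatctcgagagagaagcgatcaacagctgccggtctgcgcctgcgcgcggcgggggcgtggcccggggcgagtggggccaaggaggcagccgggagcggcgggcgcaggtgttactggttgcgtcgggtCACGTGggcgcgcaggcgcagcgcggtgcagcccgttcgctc
SRSF1: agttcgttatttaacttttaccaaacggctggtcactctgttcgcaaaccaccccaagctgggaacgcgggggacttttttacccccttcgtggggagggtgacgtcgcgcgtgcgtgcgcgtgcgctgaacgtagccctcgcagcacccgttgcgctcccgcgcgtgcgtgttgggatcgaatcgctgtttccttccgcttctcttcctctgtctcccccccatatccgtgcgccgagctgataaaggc
SRSF6: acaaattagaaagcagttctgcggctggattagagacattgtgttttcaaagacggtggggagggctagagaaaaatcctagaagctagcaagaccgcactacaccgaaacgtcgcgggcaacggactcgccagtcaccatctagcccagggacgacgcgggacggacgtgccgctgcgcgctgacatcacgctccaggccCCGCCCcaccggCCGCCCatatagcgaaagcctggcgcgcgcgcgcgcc
HNRNPAB: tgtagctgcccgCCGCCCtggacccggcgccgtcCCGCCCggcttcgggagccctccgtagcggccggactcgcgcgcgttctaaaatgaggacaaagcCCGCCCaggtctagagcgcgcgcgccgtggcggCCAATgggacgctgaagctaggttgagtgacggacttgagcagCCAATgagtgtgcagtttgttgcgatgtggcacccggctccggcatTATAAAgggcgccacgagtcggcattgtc

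All 4 stretches were rich in G and C, at 71.6% for HNRNPM, 60% for SRSF1, 61.6% for SRSF6 and 66% for HNRNPAB. Of 7 motifs searched on both strands, HNRNPM held 1 E-box (CACGTG), SRSF6 held 2 GC boxes (GGGCGG, here as CCGCCC), HNRNPAB held 3 GC boxes, 2 CCAAT boxes (CCAAT) and 1 TATA box (TATAAA), and SRSF1 held none. The motifs did not overlap each other in these stretches. Over the 31 genes of the set with an entry, 20 (64.5%) held a GC box, against 42.3% of 27305 promoters of the same length, and 15 (48.4%) held a CCAAT box, against 33%. The E-box was in 6 (19.4%, against 6.49%), the TATA box in 5 (16.1%, against 11.1%) and the ETS site (CCGGAAG) in 5 (16.1%, against 8.82%). The homeodomain core (TAATTA) was in 1 (3.23%, against 4.49%) and the cAMP response element (TGACGTCA) in 0 (against 1.77%). These are matches of letters in a window and were not tested.

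Total counts ran from 13461527 to 24672906 per library. PRRX1 was left at 12.7%, 32.1% and 19.5% of its uninduced level in Hs578 hairpins 1, 2 and 3, and at 21.8%, 13% and 39.4% in TT642. It was at 37.1 to 72.8 CPM in induced and 227 to 291 CPM in uninduced Hs578 hairpin lines, and at 298 CPM in treated and 290 CPM in untreated Hs578 parental cells. In TT642 it was at 184 to 513 CPM in induced and 1213 to 1409 CPM in uninduced hairpin lines, and at 1533 CPM in treated and 1484 CPM in untreated parental cells. Of the 33 genes, 32 passed the filter on low counts and HNRNPCL1, a retrocopy of HNRNPC, did not. Vimentin (VIM), the intermediate filament of mesenchymal cells, stood at 9915 to 11007 CPM in TT642 and 4081 to 5874 CPM in Hs578, where CPM are counts scaled to library size with TMM factors. The epithelial markers EPCAM and CDH1 were at most 0.186 and 0.103 CPM in TT642 and at most 0.27 and 0.366 CPM in Hs578. The epithelial keratins KRT8 and KRT18 were present in Hs578, at 27.7 to 56.4 and 185 to 401 CPM, and reached at most 1.54 CPM each in TT642. SMARCB1, the gene lost in most rhabdoid tumours, was present in TT642 at 28.8 to 41.6 CPM and in Hs578 at 87.7 to 125 CPM. The T cell marker CD3E had no count in any library and PTPRC, the marker of blood cells, reached 0.976 CPM at most. CD68, another blood marker read, was present at 43.2 to 105 CPM in Hs578 and 12.2 to 17.2 CPM in TT642. Among the Hs578 libraries, induced hairpin 3 and treated parental cells stood farthest from the median of the other 7 libraries of the line, at root mean square log2 distances of 0.512 and 0.508. Treated TT642 parental cells stood at 0.439, against 0.456 for untreated ones.

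Between genes, levels were compared as the deposited FPKM, which divides by length. The highest means were those of HNRNPA1, HNRNPH1 and HNRNPC (483 FPKM) in TT642 and of HNRNPA2B1, HNRNPA1 and HNRNPH1 in Hs578. HNRNPA1, an exon silencer and telomere-binding protein, averaged 549 FPKM over the 8 TT642 libraries and 556 FPKM over the 8 Hs578 libraries. HNRNPH1, which binds runs of G, averaged 543 FPKM in TT642 and 484 FPKM in Hs578, and HNRNPA2B1, a relative of HNRNPA1, averaged 378 FPKM in TT642, where it had rank 6, and 650 FPKM in Hs578. The range over libraries was 471 to 637 FPKM in TT642 and 402 to 649 FPKM in Hs578 for HNRNPA1, so its place beside HNRNPH1 (480 to 579 in TT642 and 308 to 608 in Hs578) was within the spread. In each line the first 9 places were held by HNRNP genes, and SRSF9 led the SR proteins with 170 FPKM in TT642 and 128 FPKM in Hs578. HNRNPM had rank 5 in each line, at 385 FPKM in TT642 and 313 FPKM in Hs578. At the other end stood HNRNPLL (40.1 FPKM in TT642 and 24.9 FPKM in Hs578), HNRNPH2 (36 and 26.6 FPKM), HNRNPCL1 (3.65 FPKM in TT642 and 2.86 FPKM in Hs578) and SRSF12 (1.65 FPKM in TT642 and listed at 0 in Hs578).

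HNRNPA1L2 and HNRNPCL1 are retrocopies of HNRNPA1 and HNRNPC, and their values are uncertain because reads can be shared with the parent genes. HNRNPA1L2 had 6.32 to 8.04 CPM in TT642 and 2.97 to 5.3 CPM in Hs578, yet its deposited FPKM were 43.3 to 60.2 and 39.5 to 65. HNRNPCL1 had 0 to 7 counts per library, yet its deposited FPKM were 3.04 to 4.44 in TT642 and 2.3 to 3.38 in Hs578.

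**Figure D1:**
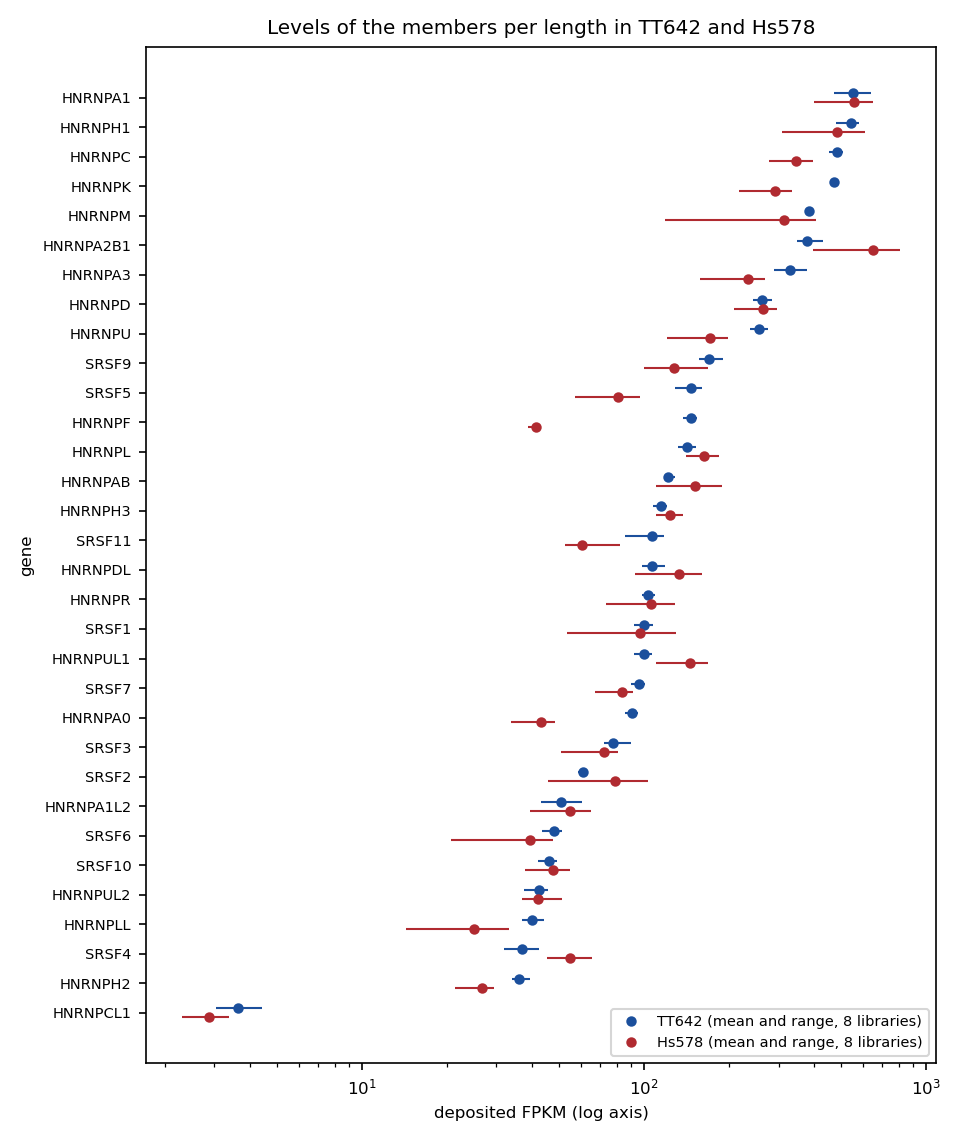
Deposited FPKM on a log axis for 32 of the 33 genes (SRSF12, listed at 0 in Hs578, is left out), sorted by the TT642 mean. Points are means and bars the lowest to highest of 8 libraries, with TT642 above Hs578. HNRNPF lay at 138 to 154 FPKM in TT642, outside the 38.9 to 43.1 FPKM of Hs578, and HNRNPM had its long lower bar in Hs578 only, down to 119 FPKM.

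In Hs578, most of the set stood lower in the single doxycycline-treated parental library than in any other Hs578 library, and HNRNPM stood lowest relative to its untreated pair. With doxycycline, HNRNPM was at 389, 310 and 320 CPM in hairpins 1, 2 and 3, against 142 CPM in parental cells. Without doxycycline, it was at 330, 371 and 343 CPM in the hairpin lines, against 333 CPM in parental cells. By CPM, the treated parental library was thus the only low value of 8, at 42.5% of the untreated parental library. By the deposited FPKM, induced hairpins 2 and 3 were also below the uninduced lines, at 260 and 233 FPKM against 354 to 408 FPKM, with treated parental cells lowest at 119 FPKM. In TT642 all 8 HNRNPM values lay between 324 and 340 CPM. In RNA from a whole culture, a change in the mix of cells and a change in RNA per cell cannot be told apart.

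SR protein genes followed in the same library. SRSF1, the founding member of the family, was at 291, 243 and 265 CPM in induced hairpins 1, 2 and 3, 152 CPM in treated parental cells, 273, 287 and 269 CPM in uninduced hairpin lines and 300 CPM in untreated parental cells. SRSF2, a component of nuclear speckles that is mutated in myeloid neoplasms, was at 238, 189 and 191 CPM in induced hairpin lines, 116 CPM in treated parental cells, 186, 193 and 192 CPM in uninduced hairpin lines and 199 CPM in untreated parental cells. SRSF6, an exon-binding SR protein, was at 185, 157 and 167 CPM in induced hairpin lines, 96.8 CPM in treated parental cells, 196, 202 and 187 CPM in uninduced hairpin lines and 195 CPM in untreated parental cells. In each of these 3 genes, treated parental cells were the lowest of the 8 libraries. For SRSF6 the 3 induced hairpin lines also lay below the 3 uninduced ones by CPM, while for SRSF1 and SRSF2 these groups overlapped. By the deposited FPKM, induced hairpin lines were below uninduced ones for SRSF1 too (85.7 ± 16.4 against 111 ± 0.762, SD, n = 3). Treated parental cells had 53.4 FPKM of SRSF1. For SRSF2 the FPKM were 83.6 ± 16.4 in induced and 82.3 ± 2.96 in uninduced hairpin lines. SRSF3, the smallest SR protein and an adaptor of messenger RNA export, showed the same order, with 368, 324 and 342 CPM in induced hairpin lines, 224 CPM in treated parental cells, 340, 357 and 344 CPM in uninduced hairpin lines and 348 CPM in untreated parental cells.

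**Figure D2:**
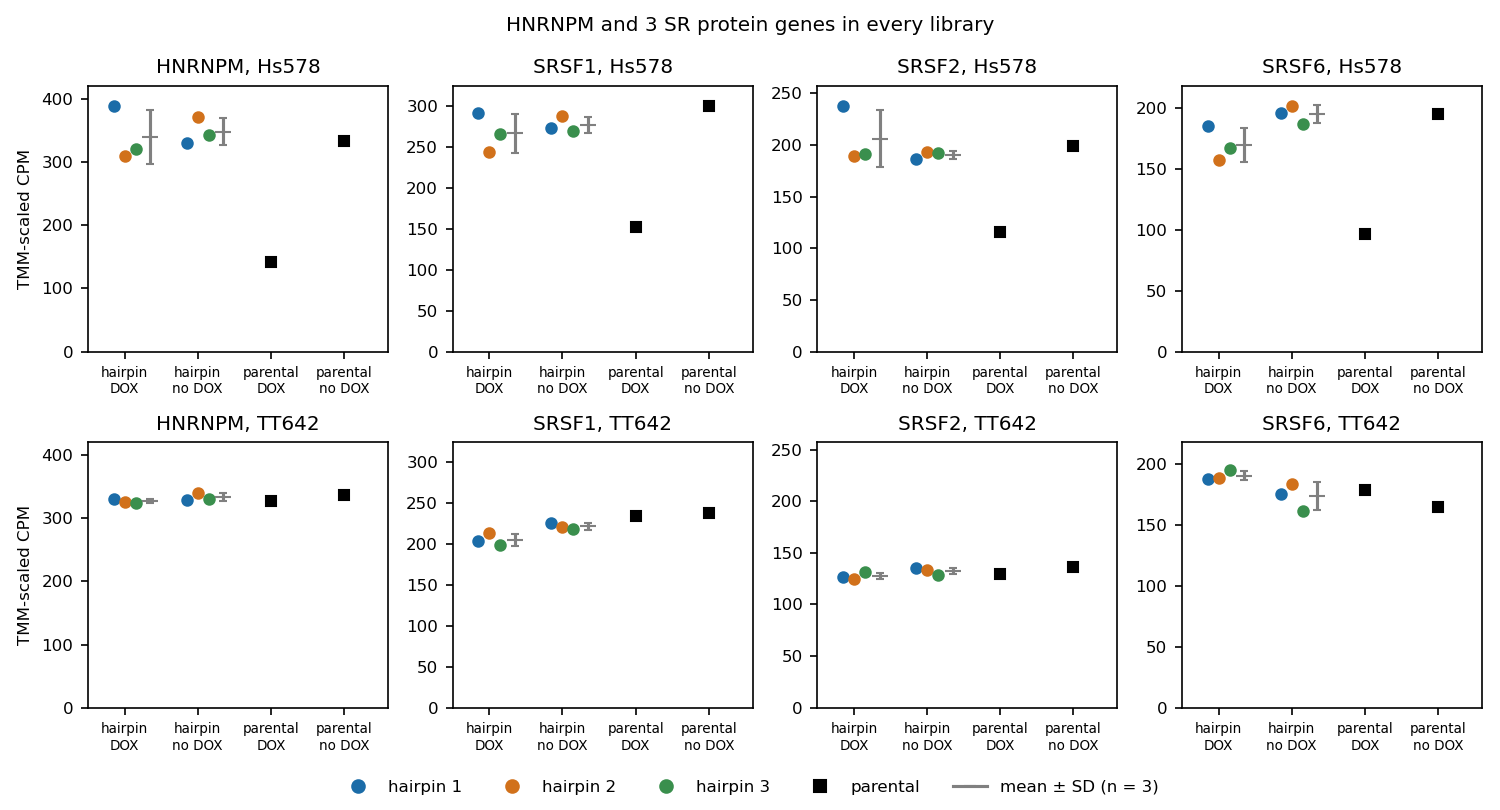
TMM-scaled CPM of HNRNPM, SRSF1, SRSF2 and SRSF6 in every library of Hs578 (top) and TT642 (bottom); circles are hairpin lines coloured by hairpin, squares are single parental libraries, and grey bars are the mean ± SD of 3 hairpin lines. In Hs578 the treated parental square sits apart, for HNRNPM at 142 CPM with every other library at 310 CPM or above, while in TT642 the 8 HNRNPM values lie between 324 and 340 CPM.

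Set against the hairpin pairs, 4 of the 32 genes passed the test of the doxycycline effect in Hs578 hairpin lines minus that in Hs578 parental cells, all with a higher effect in hairpin lines. These were HNRNPM (log2 difference 1.20, SE 0.183, adjusted p = 0.02 by edgeR's quasi-likelihood test with Benjamini-Hochberg adjustment over all genes), SRSF1 (0.93, SE 0.16, adjusted p = 0.026), SRSF2 (0.89, SE 0.174, adjusted p = 0.042) and SRSF6 (0.81, SE 0.162, adjusted p = 0.045). They make 12.5% of the set, where 0.406% of the 14035 genes tested were called and 0.292% were called with a higher effect. HNRNPM ranked 7 among all genes by p. The median difference of the set was 0.35 on the log2 scale, against 0.00 over all genes. The 4 genes with the next smallest p, HNRNPA2B1 (0.72, adjusted p = 0.083), HNRNPAB (0.58, 0.092), SRSF3 (0.63, 0.097) and HNRNPC (0.50, 0.14), did not pass.

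The test rests on 1 treated parental library, whose spread is taken to be that of the hairpin groups. None of the 4 calls held with the Hs578 libraries fitted alone, where adjusted p ran from 0.079 for HNRNPM to 0.12 for SRSF2 while the differences stayed at 0.82 to 1.21. Without hairpin 1 or hairpin 3 in both lines the count by edgeR was 0, as it was without the uninduced library of hairpin 1 or of hairpin 3, and it was 2 without the uninduced library of hairpin 2. On the deposited FPKM the differences were of like size (1.23 for HNRNPM, 0.87 for SRSF1, 0.95 for SRSF2 and 0.85 for SRSF6), and limma called none (adjusted p = 0.079 to 0.1).

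The same library lies behind each of the following values, so they are not independent of that test. Among treated libraries, Hs578 hairpin lines were higher than Hs578 parental cells in 16 of the 31 genes with a count in Hs578 and lower in 0, by edgeR, where 13.4% of all genes were called and 7.4% were higher. The 16 included HNRNPM (log2 difference 1.26, SE 0.139), HNRNPA2B1 (0.86, SE 0.128), SRSF2 (0.82), SRSF1 and SRSF6 (0.81 each), SRSF5 (0.70), HNRNPAB (0.68) and SRSF3 (0.62). Without doxycycline, the same comparison called 0 of the set and 0% of all genes by edgeR, with 0 of the set at an unadjusted p under 0.05 and 0 genes called by DESeq2. The parental pair is 1 library against 1, so its SE and p come from the spread of the hairpin groups and carry no replicate check of the parental cells. On that assumption edgeR called 6 genes lower in the treated than in the untreated Hs578 parental library and 0 higher, where 7.32% of all genes were called, 4.11% lower and 3.21% higher. By the sign of the pair ratio, 25 of the 31 genes lay lower and 6 higher, where 51.1% of all genes lay lower. The 6 genes called lower were HNRNPM (log2 ratio -1.23), SRSF6 (-1.01), SRSF1 (-0.98), SRSF2 (-0.78), SRSF3 (-0.64) and HNRNPH1 (-0.62).

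Across the set, the parental ratio of treated to untreated Hs578 cells lay below all 3 hairpin ratios for 24 of 31 genes (77.4%), against 32.5% of all genes. It lay above all 3 for 2, HNRNPH2 and SRSF4, against 31.2% of all genes, and within their range for HNRNPA1L2, HNRNPF, HNRNPL, HNRNPLL and SRSF11. The median log2 ratio of the set was 0.14, -0.03 and 0.00 in hairpins 1, 2 and 3 and -0.31 in parental cells, and that of all genes was 0.00 in each pair. HNRNP genes (-0.31) and SRSF genes (-0.33) had like medians in the parental pair. A ratio at least 1.5-fold lower was seen for 0 of 31 genes in hairpins 1 and 2 (against 11.1% and 10.1% of all genes), for 1 in hairpin 3 (against 12%) and for 6 (19.4%, against 11.6%) in parental cells. In TT642 it was seen for 0 genes of the set in hairpins 1, 2 and 3 (against 5.56%, 6.12% and 3.09% of all genes) and for 0 in parental cells (against 3.56%).

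The treated Hs578 parental library was the lowest of the 8 Hs578 libraries for 24 of 31 genes (77.4%), against 19.8% of all genes. The exceptions were HNRNPF, HNRNPH2, HNRNPH3, HNRNPLL, HNRNPUL2, SRSF4 and SRSF11. SRSF4, a large SR protein, had 147 to 161 CPM in induced against 139 to 150 CPM in uninduced hairpin lines, and 183 CPM in treated against 137 CPM in untreated parental cells. SRSF11 was at 133, 153 and 214 CPM in induced hairpin lines, 180 CPM in treated parental cells, 124 to 131 CPM in uninduced hairpin lines and 126 CPM in untreated parental cells. Summed, the 33 genes took 0.645% of all counts in treated parental cells and 0.87% to 1.01% in the other 7 Hs578 libraries. The HNRNP genes took 0.524% against 0.71% to 0.83%, and the SRSF genes 0.12% against 0.156% to 0.182%.

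Other measures of that library were as follows. Mitochondrial transcripts took 3.18% to 5.44% of counts in induced hairpin lines, 4.16% in treated parental cells and 2.73% in untreated ones. The 50 highest genes took 16.3% to 19.7% of counts in induced hairpin lines, 19.5% in treated parental cells and 15% to 15.4% in the Hs578 libraries without doxycycline. The 3 blood markers, nearly all of them CD68, summed to 43.6 to 78.3 CPM in induced hairpin lines, 64.9 to 67.2 CPM in uninduced ones, 105 CPM in treated parental cells and 61.7 CPM in untreated ones, with CD3E at 0 throughout. The 6 epithelial markers, nearly all of them the keratins KRT8 and KRT18, summed to 324 to 391 CPM in induced hairpin lines, 348 to 440 CPM in uninduced ones, 244 CPM in treated parental cells and 321 CPM in untreated ones. The part of these measures in the low values was not tested.

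**Figure D3:**
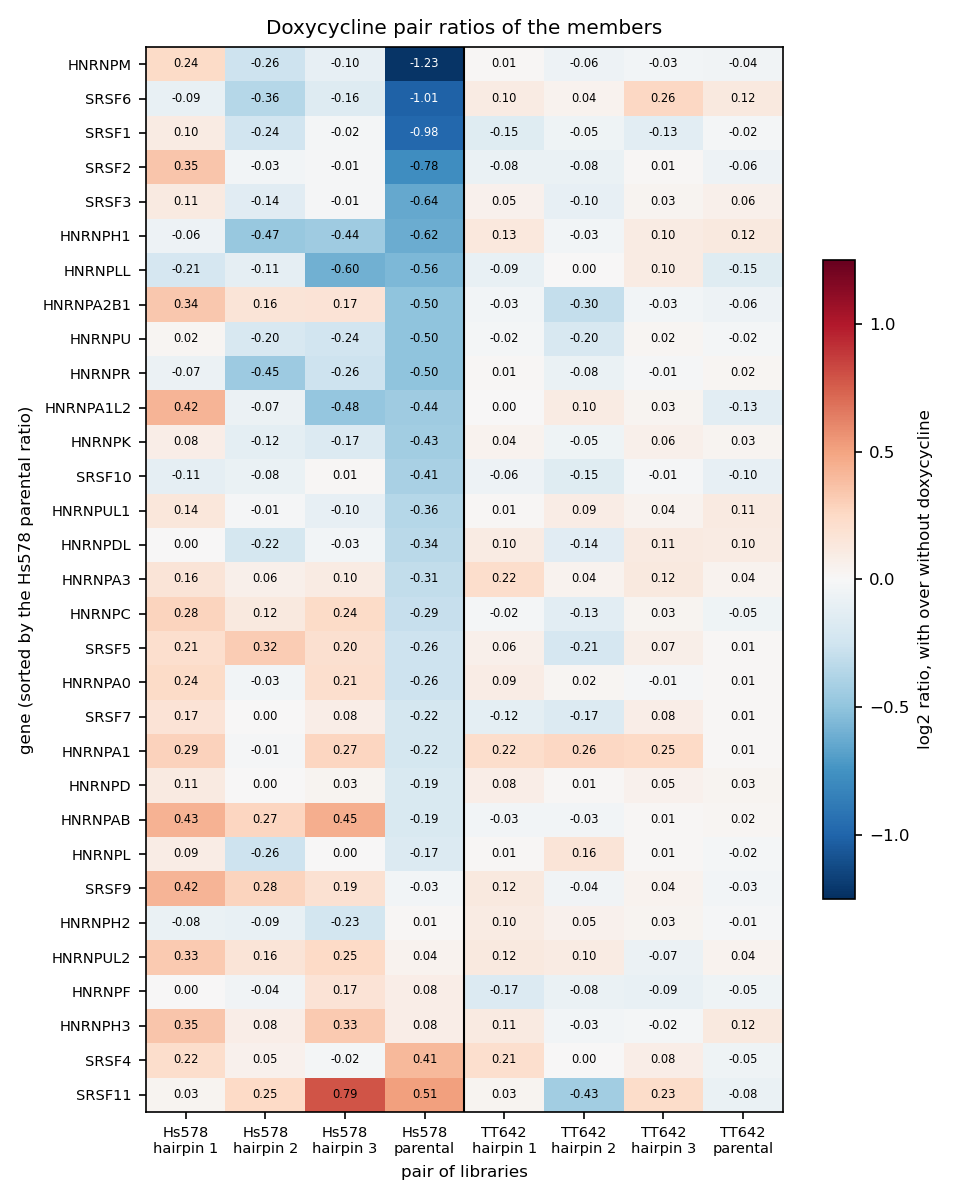
log2 ratio of the library with doxycycline over the one without for each of 31 genes (rows, sorted by the Hs578 parental ratio; SRSF12 has no count in Hs578) in the 8 pairs of libraries (columns). The Hs578 parental column is blue for most genes, down to -1.23 for HNRNPM, while the 3 Hs578 hairpin columns and the 4 TT642 columns are mostly pale.

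In TT642, doxycycline left the set near its untreated level in parental cells as in hairpin lines. The median log2 ratio of the set was 0.04 for hairpin 1, -0.05 for hairpin 2, 0.03 for hairpin 3 and 0.00 for parental cells, where single genes ran from -0.36 (SRSF12) to 0.12 (SRSF6). HNRNPM was at 330, 326 and 324 CPM in induced hairpin lines, 327 CPM in treated parental cells, 328, 340 and 331 CPM in uninduced hairpin lines and 336 CPM in untreated parental cells, with no library apart. The parental ratio lay below all 3 hairpin ratios for 7 of 32 genes (21.9%, against 21.4% of all genes) and above them for 7 (against 21.6%). By edgeR, 0 of the set and 0% of all genes passed the test of hairpin lines minus parental cells, with 0 of the set at an unadjusted p under 0.05 and 0 genes by DESeq2. Treated TT642 hairpin lines against treated TT642 parental cells gave 0 of the set (1.82% of all genes called; 2 of the set at an unadjusted p under 0.05). Uninduced TT642 hairpin lines against untreated TT642 parental cells also gave 0 (0.919% of all genes, 0.762% lower; 0 of the set at an unadjusted p under 0.05, and 0 by DESeq2).

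Averaged over both lines, doxycycline in parental cells gave 0 called genes of the set by edgeR, where 0.0143% of all genes were called. Over all genes the median log2 ratio was -0.01, and in the set it was -0.13. HNRNPM had the smallest p (mean log2 ratio -0.64, SE 0.112, adjusted p = 0.058), followed by SRSF1 (-0.50, adjusted p = 0.071). For HNRNPM the mean joins -1.23 in Hs578 and -0.04 in TT642, a difference that was not tested. With the derived line as a block, the medians were again -0.01 over all genes and -0.13 in the set.

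**Figure D4:**
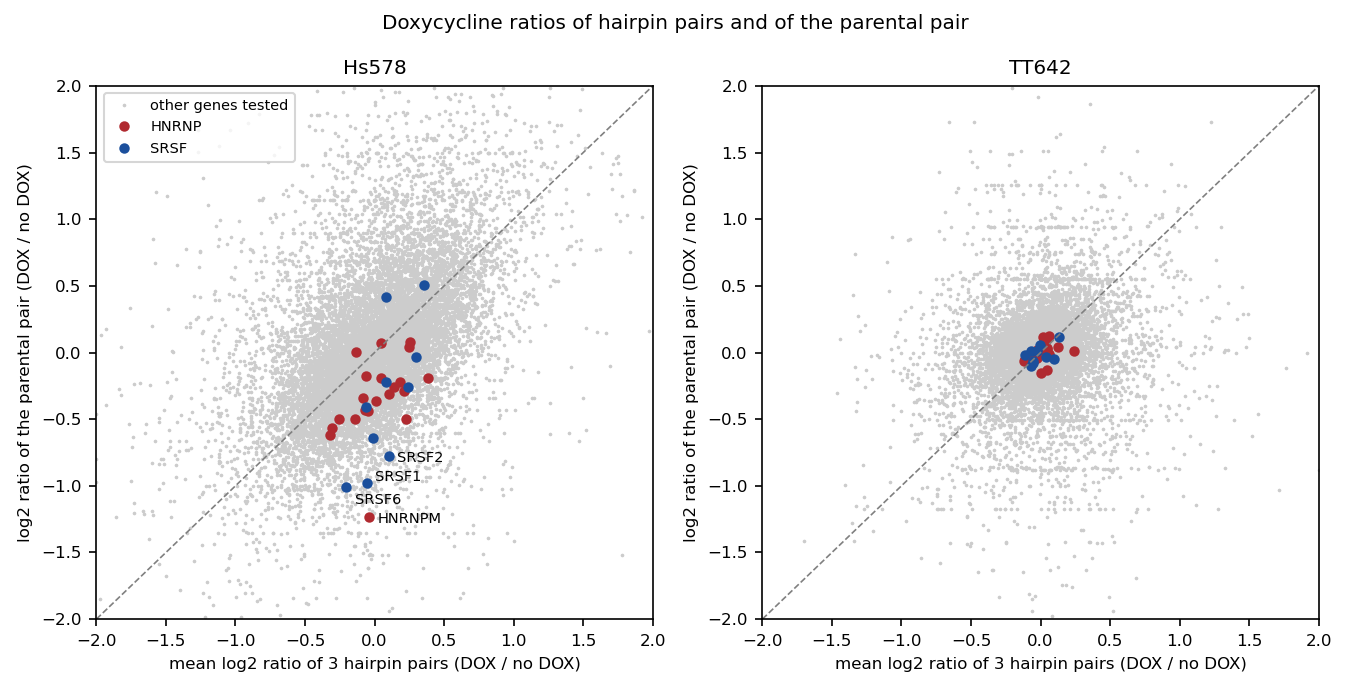
Mean log2 ratio over 3 hairpin pairs (x axis) against the log2 ratio of the parental pair (y axis) for Hs578 (left) and TT642 (right), each ratio being with over without doxycycline; grey points are other genes, a few of which lie outside the axes, red points HNRNP genes and blue points SRSF genes, without SRSF12. In Hs578 most of the set lies below the dashed line of equal ratios, with HNRNPM at -1.23 on the y axis, and in TT642 all of it lies between -0.15 and 0.12 on the y axis.

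After hairpin induction in Hs578, which lowers PRRX1, 9 of the 32 genes were called, 6 higher and 3 lower. This is 28.1% of the set, beside 29.3% of all genes (15.2% higher and 14.1% lower), so the set was called about as often as the rest. The comparison joins doxycycline and the hairpin, which it cannot tell apart. None of the 9 was called in the test of hairpin lines minus parental cells. Over all genes, 2139 were higher and 1979 lower, and on the deposited FPKM 1352 were higher and 3112 lower. HNRNPAB, a single-strand binding protein of transcripts and promoters, showed the largest called change. It was at 372, 357 and 390 CPM in induced hairpins 1, 2 and 3, against 276, 295 and 285 CPM in uninduced ones. All induced values were above all uninduced values (log2 fold change 0.39, SE 0.0708, edgeR adjusted p = 0.0018). HNRNPAB had 232 CPM in treated and 264 CPM in untreated parental cells.

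The other 5 that rose did so by 0.21 to 0.30 on the log2 scale. SRSF9, an SR protein with a short serine and arginine domain, was at 163, 158 and 146 CPM in induced lines, against 122, 130 and 128 CPM in uninduced ones (0.30, SE 0.0763, edgeR adjusted p = 0.01). HNRNPH3, a relative of HNRNPH1, was at 250, 245 and 275 CPM, against 196, 232 and 218 CPM (0.25, adjusted p = 0.031). HNRNPUL2, a relative of the nuclear scaffold protein HNRNPU, was at 335, 308 and 318 CPM, against 265, 276 and 267 CPM (0.25, adjusted p = 0.02). In all 3 the induced and uninduced hairpin lines did not overlap. SRSF5, an SR protein of exon inclusion, was at 109, 128 and 110 CPM in induced lines, against 94, 103 and 96.1 CPM in uninduced ones (0.25, adjusted p = 0.047). HNRNPC, which binds tracts of U and keeps Alu elements out of messenger RNA, was at 396, 392 and 399 CPM, against 327, 361 and 337 CPM (0.21, adjusted p = 0.044). These last calls were weak. HNRNPC was not called in 14 of 18 alternatives, with adjusted p up to 0.32, among them the derived line as a replicate block (adjusted p = 0.05 after rounding), and SRSF5 was not called in 13 of 18, with a log2 fold change of 0.04 on log2(FPKM + 1) (limma, adjusted p = 0.84).

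The 3 genes that fell also stood lower in treated than in untreated parental cells, as did most of the set (25 of 31 genes). Among the genes that rose, the parental log2 ratio was below 0 for HNRNPC (-0.29), SRSF5 (-0.26), HNRNPAB (-0.19) and SRSF9 (-0.03). It was above 0 for HNRNPH3 (0.08) and HNRNPUL2 (0.04). HNRNPH1 was at 426, 337 and 336 CPM in induced hairpin lines, against 444, 467 and 458 CPM in uninduced ones (-0.31, SE 0.0956, edgeR adjusted p = 0.024). HNRNPR, an RNA-binding protein with roles in neurons, was at 344, 272 and 291 CPM, against 362, 371 and 348 CPM (-0.25, adjusted p = 0.048). HNRNPLL, known from lymphocytes as a regulator of CD45 splicing, was at 50.9, 45.5 and 39.9 CPM, against 59, 49.3 and 60.4 CPM (-0.31, adjusted p = 0.033). In HNRNPH1 and HNRNPR hairpin 1 was nearest to the uninduced values, and in HNRNPLL the groups overlapped. Treated parental cells had 300, 257 and 42.6 CPM of HNRNPH1, HNRNPR and HNRNPLL, against 462, 362 and 63 CPM in untreated ones, 1 library each.

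**Figure D5:**
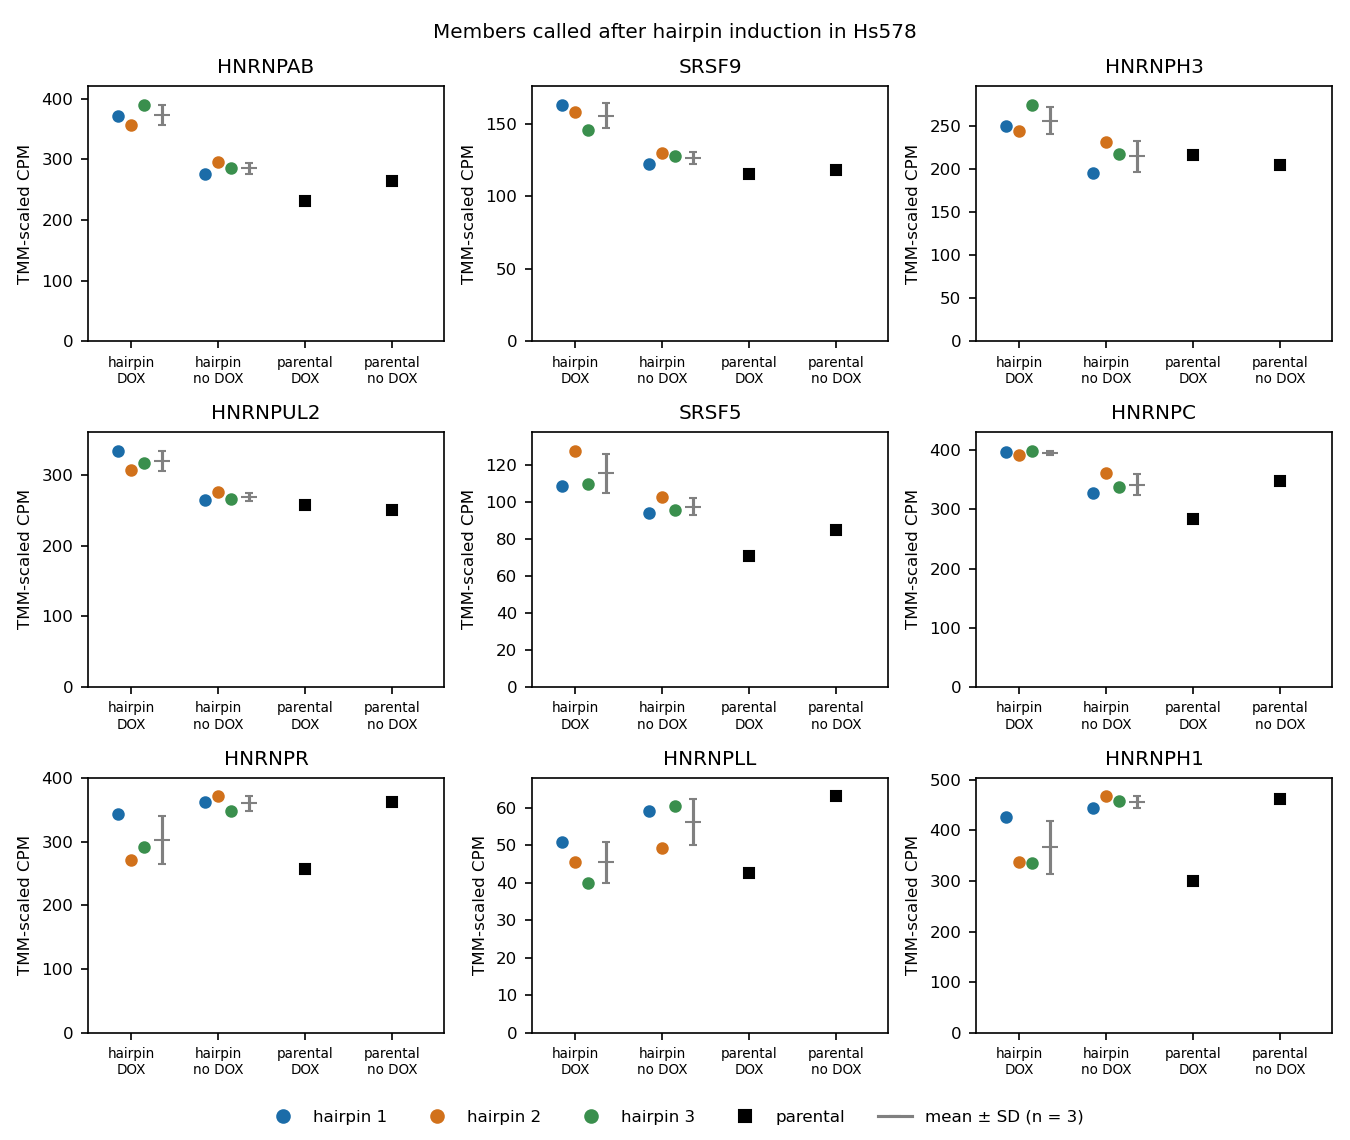
TMM-scaled CPM in the 8 Hs578 libraries for the 9 genes called after hairpin induction, drawn from the largest rise to the largest fall; circles are hairpin lines, squares single parental libraries and grey bars mean ± SD of 3 hairpin lines. For HNRNPAB the induced lines sit at 357 to 390 CPM above the uninduced 276 to 295 CPM, while the treated parental library sits at 232 CPM.

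HNRNPM itself did not pass in that comparison (340 ± 43.1 CPM in induced and 348 ± 21.4 CPM in uninduced hairpin lines, SD, n = 3; log2 fold change -0.03, SE 0.0906, edgeR adjusted p = 0.83), and its sign turned to between 0.01 and 0.07 when hairpin 2 in both lines, either of its Hs578 libraries or the induced hairpin 3 library was left out. The deposited FPKM gave another picture. By FPKM, HNRNPM was at 382, 260 and 233 in induced hairpins 1, 2 and 3, against 354, 408 and 373 in uninduced ones, and at 119 in treated parental cells, against 373 in untreated ones. On log2(FPKM + 1), a scale that understates the change of low genes, limma called HNRNPM lower (-0.41, adjusted p = 0.043). It called 7 of the set lower and 1 higher, where 31.8% of all genes were called, 9.63% were higher, 22.2% were lower and the median of all genes was shifted by -0.08. HNRNPH1, HNRNPLL and HNRNPR were lower on both measures and HNRNPAB higher on both, whereas HNRNPM, SRSF1 (-0.39), SRSF6 (-0.31) and SRSF10 (-0.23) were called lower on the FPKM only.

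Over induced and uninduced Hs578 hairpin lines, 9 of 31 genes had all induced values above all uninduced ones, against 22.4% of all genes, and 3 had all below, against 22.2%. The smallest p of an exact permutation test of 3 against 3 libraries is 0.1, so single genes cannot pass 0.05 on that test. The calls depended on which libraries were fitted. Leaving out hairpin 3 in both lines gave 0 called by edgeR, hairpin 1 gave 3 and hairpin 2 gave 4. Over all genes these fits called 840, 2678 and 2798, against 4118 with every library. Leaving out single Hs578 libraries gave 2 (uninduced hairpin 1 or 3), 3 (induced hairpin 3), 4 (induced hairpin 2), 7 (uninduced hairpin 2) or 10 (induced hairpin 1, with 8 of the 9 kept). In that order these fits called 2253 and 2898, 2680, 2714, 3513 and 4768 of all genes. Only HNRNPAB and SRSF9 remained with the Hs578 libraries fitted alone, where 3974 of 12993 genes were called.

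In TT642, hairpin induction called 0 of the 32 genes by edgeR, where 0.0285% of all genes were called. HNRNPA1 alone had an unadjusted p under 0.05, at 458, 484 and 428 CPM in induced lines, against 394, 405 and 359 CPM in uninduced ones (log2 fold change 0.24, SE 0.0883, adjusted p = 0.47), and DESeq2 called 0. The groups did not overlap for 4 genes higher when induced (HNRNPA1, HNRNPL, SRSF4 and SRSF6), which is 12.5% against 8.71% of all genes, and for 3 lower (HNRNPA2B1, HNRNPF and SRSF1), 9.38% against 6.43%.

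The test of the difference in induction between the lines called 1 gene of 32 (3.12%), where 5.24% of all genes were called, 2.76% with a higher and 2.48% with a lower effect in Hs578. HNRNPAB rose by 0.40 more in Hs578 than in TT642 on the log2 scale (SE 0.1, edgeR adjusted p = 0.04). Its TT642 values were 201, 203 and 210 CPM in induced and 205, 208 and 209 CPM in uninduced hairpin lines. The call was lost with no filter on low counts, with FPKM, without any 1 of the 3 hairpins (adjusted p = 0.092 to 0.4 by edgeR) and without any single hairpin library except induced hairpin 1 of Hs578 and uninduced hairpin 2 of either line. Over all alternatives its adjusted p ran from 0.00063 to 0.4.

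More of the set was called between the lines than in any other comparison. Without doxycycline, TT642 hairpin lines differed from Hs578 hairpin lines in 26 of 32 genes (81.2%), 12 higher and 14 lower, beside 80.8% of all genes (39.7% higher and 41% lower). SRSF12, known to antagonise other SR proteins, had 5.73, 8.51 and 5.79 CPM in TT642 hairpin lines and no count in any of the 8 Hs578 libraries. It was at least 115-fold higher in TT642, taking a floor of 3 counts over the Hs578 group. HNRNPF, a G-tract binding relative of HNRNPH1, was at 366, 363 and 358 CPM in TT642, against 114, 115 and 107 CPM in Hs578 (log2 fold change 1.70, SE 0.0725, edgeR adjusted p = 1.7e-11). HNRNPA0, which binds AU-rich elements, was at 282, 291 and 283 CPM in TT642, against 149, 167 and 156 CPM in Hs578 (0.86, adjusted p = 5.6e-08).

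HNRNPA2B1 and HNRNPUL1 were the most lowered in TT642. HNRNPA2B1 was at 697, 815 and 695 CPM in TT642, against 1351, 1428 and 1420 CPM in Hs578 (-0.93, SE 0.0863, edgeR adjusted p = 1.1e-07). HNRNPUL1, a partner of the DNA repair machinery, was at 337, 338 and 341 CPM, against 630, 657 and 635 CPM (-0.92, adjusted p = 4.7e-08). Over all 8 libraries of each line the ranges stayed apart, at 325 to 366 CPM in TT642 and 107 to 120 CPM in Hs578 for HNRNPF, 282 to 306 and 129 to 181 CPM for HNRNPA0, 660 to 815 and 900 to 1705 CPM for HNRNPA2B1, and 323 to 360 and 489 to 696 CPM for HNRNPUL1. Among SR proteins, SRSF5 and SRSF11 were higher (0.70 each), SRSF9 was higher by 0.19, and SRSF4 (-0.68), SRSF2 (-0.52), SRSF3 (-0.45), SRSF1 (-0.32) and SRSF10 (-0.29) were lower. HNRNPM (-0.06, adjusted p = 0.53), HNRNPH2, HNRNPH3, HNRNPUL2, SRSF6 and SRSF7 did not pass. On log2(FPKM + 1), limma called 13 higher and 7 lower, where 10878 of 14035 genes were called, 6006 higher and 4872 lower. The median of all genes was shifted by 0.11 on that scale.

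Genes that work beside the set were read from lists. Of 51 core spliceosome genes tested, 22 rose and 7 fell after induction in Hs578 (56.9%, against 29.3% of all genes), among them the U1 protein SNRNP70 (0.59), the U2 subunit SF3A2 (0.56) and SNRPA (0.46) of the U1 particle. In the parental pair 45 of these 51 lay below the 3 hairpin ratios and 2 above, against 32.5% and 31.2% of all genes. Of 30 SR-related proteins 8 rose and 4 fell (40%), led by SCAF8 (-0.60), SCAF1 (0.36) and PNISR (0.58), and in the parental pair 16 lay below (53.3%) and 3 above. Of 11 kinases and importins of SR proteins 3 rose and 3 fell (54.5%), including the importins TNPO1 (-0.55) and TNPO2 (0.41) and the kinase CLK2 (0.48), and in the parental pair 3 lay below (27.3%) and 4 above.

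Of 41 other splicing regulators 6 rose and 9 fell (36.6%, against 29.3% of all genes), with MBNL1 (-0.59), CELF2 (-1.08) and RALY (0.44) first by p, and in the parental pair 22 lay below (53.7%, against 32.5% of all genes) and 8 above (against 31.2%). Of 15 genes of nonsense-mediated decay 3 rose and 3 fell (40%, against the same 29.3%), including the kinase SMG1 (-0.82) and the exon junction protein RBM8A (0.30), and 11 lay below (73.3%, against 32.5%) and 0 above. Of 11 regulators of epithelial and mesenchymal splicing, a list that shares HNRNPM, SRSF1 and HNRNPA1 with the set, 0 rose and 2 fell by edgeR (18.2%), MBNL1 and QKI (-0.52), and 7 lay below (63.6%) and 2 above. The epithelial regulator ESRP1 was at most 0.822 CPM in TT642 and at most 3.39 CPM in Hs578. In the test of hairpin lines minus parental cells in Hs578, SF3B4 (0.81) and SRRT (0.79) were among the genes of these lists called beside HNRNPM and SRSF1. In TT642 induction 0 genes of any list were called by edgeR.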

How the data were processed

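The authors deposited raw counts per gene symbol and FPKM values (fragments per length and depth) for 16 libraries of polyadenylated RNA, made with a stranded TruSeq kit per the labels' protocols. The submitters' processing notes name the build hg19. The sources used here name no aligner, counter, annotation or strand setting. Column names matched sample titles. Depth was 13461527 to 24672906 counts per library, and 2457 of 20114 genes had no count. No libraries agreed within sampling noise (lowest chi-square per degree of freedom 5.56 over 120 pairs).

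The count tests used edgeR 4.0.16 under R 4.3.3 (quasi-likelihood, TMM, default filter on 8 groups, robust), 1 mean per group over all 16 libraries and 8 residual degrees of freedom. Tests were two-sided, adjusted by Benjamini-Hochberg over 14035 genes and called under 0.05. SRSF12 stayed in the count of 32 tested, although it had no count in Hs578. Pair ratios are log2 CPM with a prior count of 2. Alternatives used relative log expression scaling, DESeq2 1.42.0, limma 3.58.1 on log2(FPKM + 1) or log2(FPKM + 0.1), no filter, no robust moderation, a replicate block, 1 line alone, and each hairpin or hairpin library left out. The scripts were tested on simulated data. Promoter sequences came from RefSeq's table for GRCh38.p14, which matched 31 of 33 genes and not HNRNPA1 and SRSF2; where a gene had several starts, the first listed was searched.

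Titles give the same number with and without doxycycline, so numbers are read as pairing libraries of 1 derived line. The correlation between the deviations of such a pair from its group means was 0.13, -0.03 and 0.00 for hairpins 1, 2 and 3 of Hs578, and 0.44, 0.42 and 0.42 for those of TT642.

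The genes and lists were chosen with earlier results of these data known. The rule named HNRNPM, up to 12 called genes of the set in Hs578 induction and up to 5 in each other comparison by absolute log2 fold change, the 3 highest by FPKM, and up to 3 called genes per other list by p in Hs578 induction; some genes of those lists are not reported here. SRSF3, SRSF4 and SRSF11, the genes that missed a threshold and those of comparisons added after seeing the data (treated libraries alone, fits without the Hs578 parental libraries, and other settings of the pair ratios) were named after their values were seen.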

Additional observations from a re-analysis of the deposited data

Results flagged for a closer look

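The doxycycline effect in Hs578 hairpin lines differed from that in Hs578 parental cells by the test of the difference for HNRNPM (log2 difference 1.20), SRSF1 (0.93), SRSF2 (0.89) and SRSF6 (0.81), each by edgeR with an adjusted p under 0.05. By counts, the hairpin effects were small (-0.03 for HNRNPM, -0.05 for SRSF1, 0.11 for SRSF2 and -0.20 for SRSF6). On log2(FPKM + 1) they were -0.41, -0.39, 0.01 and -0.31 in the same order, and limma called all but that of SRSF2 lower. The parental log2 ratios by counts, from 1 library with and 1 without doxycycline, were -1.23, -0.98, -0.78 and -1.01. The induction effect on HNRNPAB differed between the lines, by 0.40 (Hs578 minus TT642, edgeR adjusted p = 0.04).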

How the results depend on the processing

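For genes of the set, the Hs578 hairpin effect minus the parental one called 4, but 2 with relative log expression scaling, 8 by DESeq2, 0 by limma with either pseudocount, 0 with Hs578 alone, 16 in treated libraries only (chosen after seeing the data) and 0 to 4 with a replicate left out. Its log2 differences kept their sign throughout, at 1.05 to 1.29 for HNRNPM (adjusted p = 3.9e-06 to 0.14), 0.81 to 1 for SRSF1, 0.76 to 0.96 for SRSF2 and 0.75 to 0.88 for SRSF6. Hs578 induction called 9, 2 with Hs578 alone and 0 to 10 with a hairpin or a single hairpin library left out. The difference between lines called 1, 4 by DESeq2, 0 with no filter and 0 by limma with either pseudocount. It called 0 to 3 with a hairpin or a single hairpin library left out. Parental doxycycline called 0, 4 by DESeq2, 1 with no filter, 2 with the replicate block and 6 in the Hs578 pair alone. HNRNPM induction in Hs578 reversed from -0.03 to 0.07 without replicate 2, to 0.02 and 0.03 without its uninduced or induced library and to 0.01 without the induced library of replicate 3, over a range of -0.18 to 0.07; the cause was not tested. The TT642 parental ratio lay below the hairpin ratios for 7, and for 1 on log2(FPKM + 1); the Hs578 count stayed at 23 to 25. The replicate block changed no other count of the set by over 1.5 times, but ended the call of HNRNPC in Hs578 induction (adjusted p = 0.05). The pairing shows in the values of TT642 and hardly in Hs578.

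Over all genes, Hs578 induction called 4118 (2139 higher, 1979 lower), 840 without replicate 3, and 1352 higher and 3112 lower on log2(FPKM + 1). The test against parental cells in Hs578 called 57, 295 by DESeq2, 13 by limma on log2(FPKM + 0.1), 2 with Hs578 alone and 140 with the replicate block. It called 0 to 139 with a hairpin or a single hairpin library left out. The difference between lines called 735, 1394 by DESeq2, 1118 by limma on log2(FPKM + 1) and 1763 with the replicate block. It called 2 to 123 with a hairpin left out in both lines, and up to 2082 with a single hairpin library left out. Parental doxycycline called 2, 1 with relative log expression scaling, 0 and 1 by limma, 258 by DESeq2, 24 with no filter, 163 with the replicate block and 1027 in the Hs578 pair alone. TT642 induction called 4, 76 by DESeq2, 46 with the replicate block, 8 with no filter, 13 by limma on log2(FPKM + 1) and 2 with TT642 alone. It called 0 to 6 with a hairpin or a single hairpin library left out. Uninduced TT642 hairpin lines against parental cells called 129, 212 by DESeq2, 78 by limma on log2(FPKM + 0.1) and 54 with TT642 alone. That comparison called 74 to 171 with a hairpin or a single hairpin library left out. All counts of the comparison of the lines stayed within 1.5 times (20 to 27 of the set). A single parental library per condition limits every value set against it.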
